A study of Mus musculus with 3 samples.

Results

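The cells described here were the 446 bone marrow derived macrophages (BMDMs) that carried the largest share of *Cxcl3* and *Cxcl5* RNA after 4 hours with borrelial lipoproteins (*Bb*LP). They were chosen on these genes: the *Cxcl3* and *Cxcl5* counts of each LP4 cell were added and divided by all counts of the cell, and the 10% of cells with the highest score were taken as chemokine-rich. They made 446 of 4451 LP4 cells with at least 5000 counts, out of 12359 such cells in the 3 libraries. They were compared with the 1526 LP4 cells (34.3%) in which neither gene had a count.

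BMDMs were grown from bone marrow of female C3H/HeN mice aged 6 to 8 weeks in medium conditioned by L929 cells. The paper's culture methods give pooled marrow, whereas its single-cell methods give cells of several mice that were treated separately. LP1 and LP4 cells received 1 µg/mL *Bb*LP for 1 or 4 hours, and Ctrl cells were left untreated (given PBS alone) and collected with LP4. Droplet-based single-cell RNA sequencing counted unique molecular identifiers (UMIs, one per captured transcript) for each gene and cell. The cells of several wells were pooled into 1 library per condition and are not labelled by mouse or well. Nothing here therefore measures the spread between mice or cultures, and cells are not replicates of a condition. No test was therefore made, and all intervals are exact 95% intervals that cover counting error only.

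CXCL1, CXCL2, CXCL3 and CXCL5 belong to the CXC chemokines with an ELR motif, which bind the receptor CXCR2 on neutrophils and draw these cells into inflamed tissue. Macrophages make them soon after Toll-like receptors sense bacterial products, when NF-κB enters the nucleus and the RNAs, which decay rapidly at rest, are stabilised. *Pf4* (platelet factor 4) lies in the same gene cluster but encodes a chemokine without the ELR motif.

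The genes lie close together on chromosome 5 of GRCm38, all on the + strand. By GENCODE vM21 they run from *Cxcl5* (90759360 to 90761624) through *Pf4* (90772435 to 90773383), *Cxcl3* (90786103 to 90789600) and *Cxcl1* (90891241 to 90893115) to *Cxcl2* (90903871 to 90905938), a span of 147 kb. The 120 bases before the RefSeq start sites of *Cxcl1*, *Cxcl2* and *Cxcl3* are shown because these RNAs were abundant in the same cells. Capitals mark matches to an NF-κB type motif.
Cxcl1, chr5:90891125-90891244, GRCm38.p6, + strand: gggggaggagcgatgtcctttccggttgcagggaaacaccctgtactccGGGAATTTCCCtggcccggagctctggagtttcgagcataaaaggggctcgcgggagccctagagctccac
Cxcl2, chr5:90903779-90903898, GRCm38.p6, + strand: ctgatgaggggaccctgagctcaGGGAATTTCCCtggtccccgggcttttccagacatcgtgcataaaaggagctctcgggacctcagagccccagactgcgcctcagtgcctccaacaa
Cxcl3, chr5:90785981-90786100, GRCm38.p6, + strand: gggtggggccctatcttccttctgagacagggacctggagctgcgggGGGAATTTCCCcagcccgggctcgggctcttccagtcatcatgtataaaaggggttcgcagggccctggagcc

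All 3 windows held the same 11 bases, GGGAATTTCCC, in which the motif of 10 letters matched on both strands with an overlap. The run began 71 bases before the RefSeq start of *Cxcl1*, 97 before that of *Cxcl2* and 73 before that of *Cxcl3*. These starts differ from the GENCODE starts given above. The *Cxcl2* window ends at 90903898, past the GENCODE start at 90903871, so the distances depend on the start used and are not compared between genes. Over windows of 300 bases, the motif was present on either strand in 8.18% of 27025 promoters and it was not found in the *Pf4* window. Of the 12 genes named below as highest, 9 had a promoter entry and 3 of these held the motif (*Cxcl1*, *Cxcl2* and *Ednrb*), and of the 12 named as lowest 1 of 10 did (*Mmp12*). It was present for 15 of 113 higher genes with an entry (13.3%), 24 of 194 lower genes (12.4%) and 10.5% of all genes tested. A match is a sequence of letters and was not measured as a bound site.

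The score was used to choose the cells, so its values describe the choice. The chemokine-rich cells held a median of 22 *Cxcl3* UMIs (0 to 88) and 2 *Cxcl5* UMIs (0 to 84). The limit lay at 19.6 UMIs of both genes per 10000 UMIs of the cell. The nearest cells inside it had 19.56 and 19.58, the nearest outside 19.51 and 19.50, and 78 cells lay within 10% below it and 62 within 10% above it. The scores of neighbouring cells on either side of the limit lay close together, and the chemokine-rich cells are a range of the score set by that limit. Whether they are a type of their own was not tested. Both genes were counted in 232 of the 446 cells, *Cxcl3* alone in 203 and *Cxcl5* alone in 11. The 446 cells, 10.0% of the LP4 cells, held 35.1% of all *Cxcl3* UMIs and 71.8% of all *Cxcl5* UMIs.

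**Figure D1:**
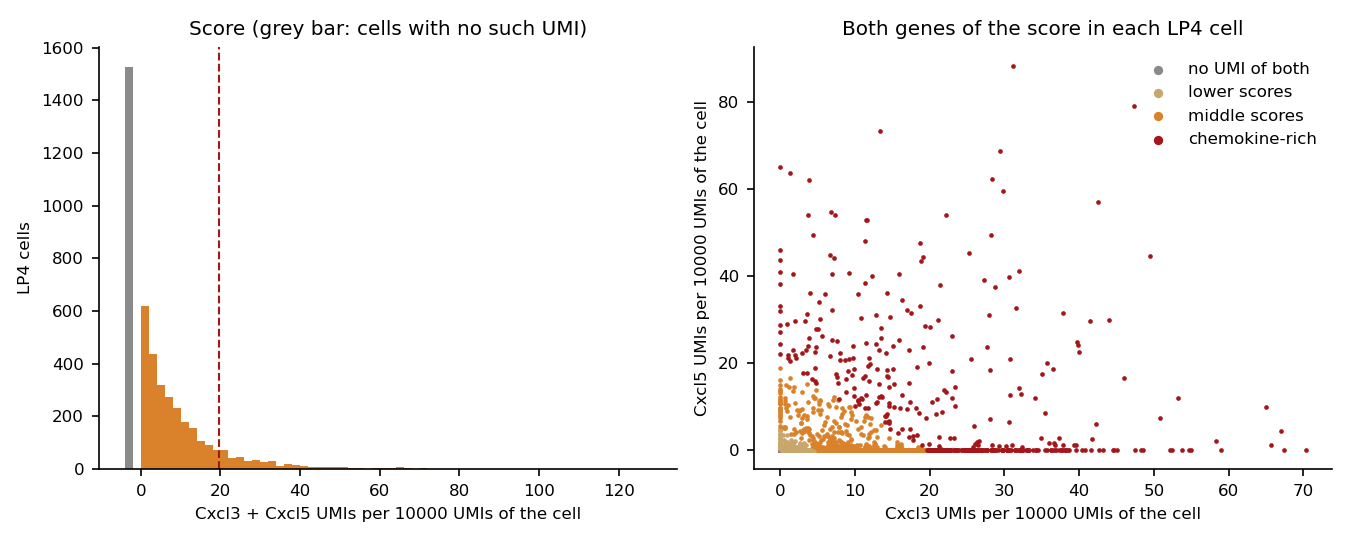
Left, histogram of the score over LP4 cells, with UMIs of *Cxcl3* and *Cxcl5* per 10000 UMIs on the x axis and cells on the y axis; the grey bar left of 0 holds the 1526 cells without either UMI and the dashed line is the limit at 19.6. Right, *Cxcl5* against *Cxcl3* per 10000 UMIs, 1 point per cell; most chemokine-rich cells lie either along the *Cxcl3* axis (203 cells without a *Cxcl5* UMI) or spread above it.

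*Cxcl3* and *Cxcl5* were each examined in cells chosen on the other gene alone. Cells in the highest 10% for *Cxcl3* had 474 CPM of *Cxcl5* (counts per 1000000 UMIs, after each cell was thinned to 5000 UMIs), against 48.1 CPM in cells without a *Cxcl3* UMI. The log2 ratio was 3.30 (3.13 to 3.47), and 22.4% against 4.25% of the cells had a *Cxcl5* UMI. Cells in the highest 10% for *Cxcl5* had 1079 CPM of *Cxcl3* against 484 CPM, a log2 ratio of 1.16 (1.09 to 1.22), with 80.7% against 50.8% of cells positive. With either choice the other gene was higher in the chosen cells, although the cells compared with were not the same. The limits also differed, at 15.7 *Cxcl3* UMIs and 1.29 *Cxcl5* UMIs per 10000 UMIs of the cell. Only 14.2% of LP4 cells had a *Cxcl5* UMI, so the choice on *Cxcl5* took in weakly positive cells. Across the 4451 cells of this 1 library the shares of both genes had a Pearson r of 0.22 and a Spearman rho of 0.23.

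Before thinning, a chemokine-rich cell had a median of 10071 UMIs and 2906.5 genes, and a cell without either chemokine 11528 UMIs and 3272 genes. Mitochondrial UMIs made a median of 3.01% against 3.15%, and ribosomal protein UMIs 8.22% against 7.82%. The label was checked on marker genes. All 11 macrophage markers were found in the chemokine-rich cells, *Lyz2* in 100% and *Cd14* in 99.8% of them. Their summed count was 16 to 209 UMIs per thinned cell (median 76), against 0 to 231 (median 55) in the other group. *Lyz2* gave most of it (mean 56.9 against 43.8 UMIs), followed by *Cd14* (12.2 against 6.45). Of the 11 markers, 1 was past 1.5-fold upward (*Cd14*) and 1 downward (*Mertk*, log2 ratio -1.17), and 4 had ratios below 0. Of 12 neutrophil markers 6 were at 0, among them *Mpo*, *Elane*, *Camp* and *Ltf*, and *S100a9* had 4 UMIs in all 446 cells. *Csf3r* (97.3 CPM) and *Mmp8* (214 CPM) gave most of the remaining counts of that list, whose sum was 0 to 9 UMIs per cell (median 1). In the comparison cells it was 0 to 1149 (median 1). Of 10 dendritic cell markers 8 were at 0, and of 10 stromal markers 9. One barcode of the 446 also occurred in Ctrl and 0 occurred in LP1.

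Of 5434 genes with a mean of at least 20 CPM in the pair of groups, 160 were at least 1.5 times higher in the chemokine-rich cells (2.94% of those tested) and 233 at least 1.5 times lower (4.29%). *Cxcl3* and *Cxcl5* were left out. These shares are the background for the counts of gene list members given below. The counting interval of every one of these genes excluded a ratio of 1. The limits of 20 CPM and 1.5-fold bring this about at these UMI totals, so it adds no support. The median log2 ratio over all genes tested was -0.03. With TMM scaling the counts were 205 higher and 172 lower, so that 54.4% of the called genes were higher in place of 40.7%, and it moved the median gene to 0.03. Median-of-ratios scaling gave 212 higher and 164 lower (56.4%). Along 4 bands of the score (no UMI, low, middle and chemokine-rich, with the low and middle bands of 1239 and 1240 cells divided at 5.12 UMIs per 10000), the level was higher at every step for 125 of the 160 genes and lower at every step for 142 of the 233 (78.1% and 60.9%). Over all 5434 genes tested these shares were 11.2% and 12.2%, but a gene called for its difference between the ends of the score is more likely to show such steps, so nothing is read from the counts.

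The other neutrophil-attracting chemokines *Cxcl1* and *Cxcl2* had ranks 1 and 3 by ratio among the genes named as highest, with *F13a1* between them. *Cxcl1* had the largest log2 ratio of the genes named by rule, 2.21 (2.14 to 2.28), a 4.63-fold difference. It stood at 385 CPM in cells without *Cxcl3* or *Cxcl5*, 547 in the low band, 1006 in the middle band and 1784 in the chemokine-rich cells. A thinned cell held 0 to 60 *Cxcl1* UMIs (median 7) if chemokine-rich and 0 to 52 (median 0) otherwise, so the groups overlapped from cell to cell. *Cxcl2* went from 969 through 1251 and 2124 to 3616 CPM, with a log2 ratio of 1.90 (1.85 to 1.95). *Pf4* was 3896 against 1798 CPM (1.12, 1.08 to 1.16). *Ppbp*, a further CXCR2 ligand gene of the cluster, had 5 and 4 UMIs and was too low to compare, and *Cxcl15* had 0 UMIs in both groups.

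*Cxcl1* was found in 89.5% and *Cxcl2* in 96.0% of the chemokine-rich cells, against 42.3% and 60.7% of the comparison cells. Beside these groups, 21 LP4 cells with at least 25 UMIs of neutrophil granule genes (median 10732 UMIs before thinning) were examined. After thinning, 4.76% of these had a *Cxcl1* UMI (0.12 to 23.8) and 28.6% a *Cxcl2* UMI (11.3 to 52.2), and *Cxcl3* was found in 1 of the 21. Of the 21, 18 were in the comparison group, which was chosen for no *Cxcl3* or *Cxcl5* UMI before thinning. The other 3 had an intermediate score, so each held a *Cxcl3* or *Cxcl5* UMI before thinning. Whether the chemokine RNA in the 21 cells was their own was not tested. The matrices hold called cells only, so free RNA was not measured directly.

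Of the interleukin-1 family, *Il1a* and *Il1b* were higher. *Il1b*, which encodes the secreted pyrogen IL-1β, stood at 2333 against 729 CPM (log2 ratio 1.68, 1.62 to 1.73), and *Il1a* at 768 against 248 CPM (1.63, 1.54 to 1.73). *Il1rn*, the gene of their receptor antagonist, was 1540 against 1086 CPM (0.50, 0.45 to 0.56), below the limit of 1.5-fold. *Il18*, a further member, was 34.5 against 26.3 CPM (0.39, -0.01 to 0.78), and *Il1f9* had 6 against 80 UMIs and was too low to be tested. *Il10*, an anti-inflammatory cytokine gene, was 305 against 96.2 CPM (1.66, 1.51 to 1.82). Of 13 cytokine genes tested, 5 were higher and 1 lower. Besides these 3, the higher genes were *Il6* (51.6 against 16.6 CPM) and *Osm* (66.8 against 22.7 CPM), whereas *Il27* was lower (61.0 against 114 CPM). *Csf3*, the neutrophil growth factor G-CSF, was below the limit for testing, with 31.4 CPM (70 UMIs) against 4.85 CPM (37 UMIs), and 5 cells held 48.6% of the 70 UMIs.

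*Tnf*, an early cytokine gene of activated macrophages, did not reach 1.5-fold in either direction. It was 225 CPM in the chemokine-rich cells and 307 CPM in the comparison cells, a log2 ratio of -0.45 (-0.59 to -0.31), and was counted in 36.3% against 52.9% of cells. In chemokine-rich cells without a *Cxcl5* UMI it was 282 CPM, and in those with one 178 CPM. *Nos2*, the inducible nitric oxide synthase, was 129 against 200 CPM (-0.64, -0.82 to -0.46). *Acod1*, which makes itaconate, was 2637 against 2095 CPM (0.33, 0.29 to 0.38), and *Arg2* 43.9 against 19.1 CPM (1.20, 0.82 to 1.58).

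Enzymes of prostaglandin synthesis were higher in the same cells. *Ptgs2*, which encodes the inducible cyclooxygenase, was 235, 292, 385 and 734 CPM along the bands, with a log2 ratio of 1.64 (1.54 to 1.74). *Ptges*, the prostaglandin E synthase that acts after it, was 356 against 174 CPM (1.03, 0.90 to 1.16), and the receptor gene *Ptger2* 39.5 against 25.6 CPM (0.63, 0.25 to 1.00). These 3 were the genes past 1.5-fold among 5 tested of the prostaglandin and leukotriene list, whose median was 0.63.

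*F13a1*, the A subunit of coagulation factor XIII, was 406 CPM against 99.6 CPM (2.03, 1.89 to 2.17). This was the second largest ratio of the genes named by rule, although only 28.5% against 11.1% of cells had a UMI. *Thbs1* (thrombospondin-1) was 235 against 80.7 CPM (1.54, 1.37 to 1.71). Of the chemokine-rich cells' *Thbs1* UMIs, 21.8% came from 5 cells, and of the comparison cells' 31.7% came from 5 cells. A *Thbs1* UMI was found in 20 of the 21 granule cells. Without cells holding at least 3 granule gene UMIs its log2 ratio was 2.62. Of 12 protease and plasminogen genes tested, 5 were higher, among them the collagenase gene *Mmp13* (1086 against 447 CPM, log2 ratio 1.28) and the protease inhibitor gene *Serpinb2* (332 against 146 CPM, 1.19). For *Serpinb2*, 5 cells held 23.1% of the UMIs of the chemokine-rich group and 5 cells 12.9% of those of the comparison group. *Mmp12*, the macrophage elastase, was the 1 lower gene, at 353 against 1023 CPM (-1.54, -1.64 to -1.43).

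*Errfi1*, an inhibitor of the epidermal growth factor receptor, was 1114 against 348 CPM (1.68, 1.60 to 1.76), and the endothelin receptor gene *Ednrb* 109 against 37.9 CPM (1.52, 1.27 to 1.78). *Zfp36l1* and *Zfp36l2* encode proteins that bind AU-rich elements of short-lived RNAs and promote their decay. They were 298 against 116 CPM (1.37, 1.22 to 1.51) and 140 against 56.2 CPM (1.32, 1.11 to 1.53). *Zfp36l1* and *Zfp36l2* were the genes past the limit among 7 tested genes that regulate mRNA decay in either direction. With these, 11 of the 12 genes named as highest were higher at every band, and *Thbs1* was the exception. The 12 genes were chosen by the ratio between the ends of the score, so nothing is read from this count.

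**Figure D2:**
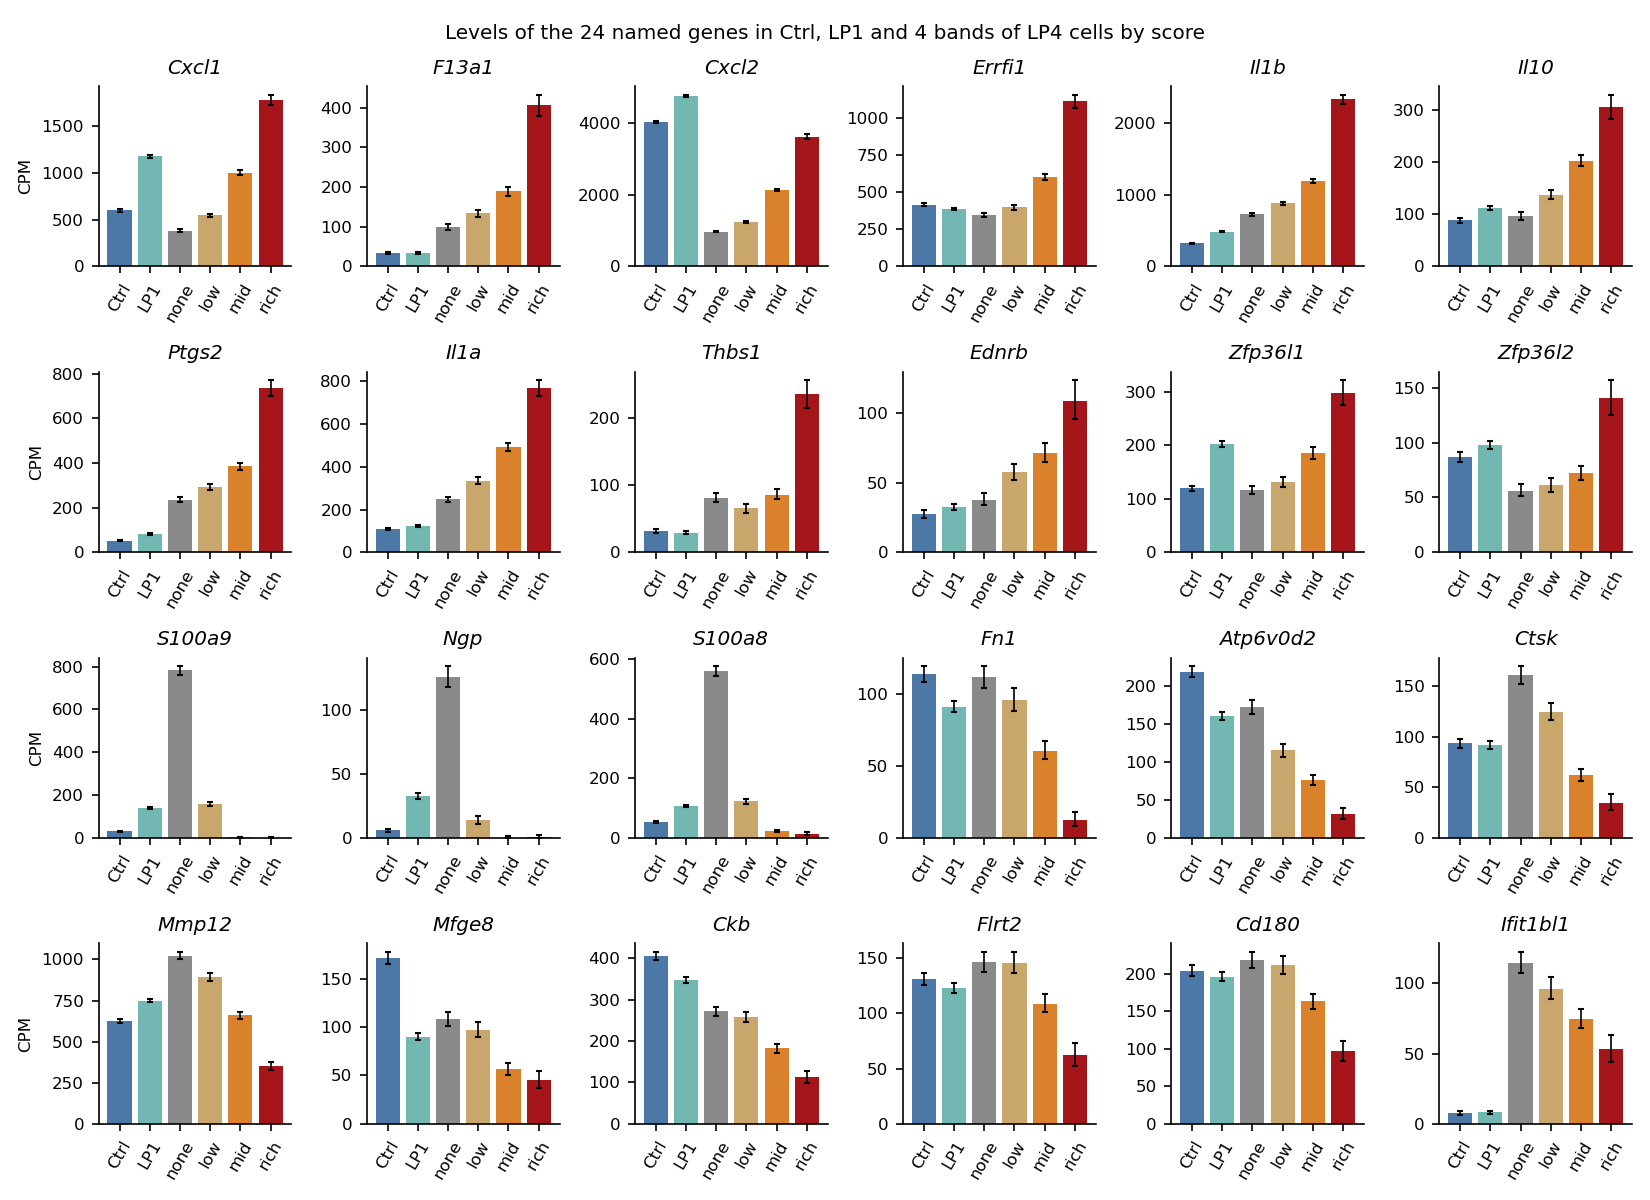
Level in CPM (y axis, each panel with its own scale from 0) of the 12 genes named by rule in each direction. Groups are Ctrl and LP1 cells and LP4 cells with no *Cxcl3* or *Cxcl5* UMI (none), a low or middle score, or chemokine-rich (rich). Bars are pooled over cells and error bars are exact 95% Poisson intervals for counting error. *Cxcl1* runs from 385 to 1784 CPM over the LP4 bands, and *Cxcl2* in the chemokine-rich cells (3616 CPM) is close to its Ctrl level (4016 CPM).

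Genes of NF-κB and Toll-like receptor signalling, among them feedback genes, were examined as lists. Of 15 genes of NF-κB subunits and feedback proteins, *Traf1* alone was past 1.5-fold (177 against 74.2 CPM, log2 ratio 1.26). Of the 15, 14 were above 0, and their median was 0.35 beside -0.03 over all genes tested. The share of all genes above 0 was not counted, so little is read from the 14. *Nfkbia*, the gene of the inhibitor IκBα, was 1212 against 1066 CPM (0.18), and *Tnfaip3*, which encodes the feedback enzyme A20, 745 against 514 CPM (0.54). *Tlr2*, whose product senses lipoproteins, was 349 against 299 CPM (0.22, 0.11 to 0.34). *Cd14*, the co-receptor that hands lipoproteins to TLR2, was 2435 against 1290 CPM (0.92, 0.87 to 0.96) and was the 1 higher gene among 10 receptors and adaptors tested.

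Interferon-stimulated genes were not higher. Of 30 tested, 0 were past 1.5-fold upward and 2 downward, *Irf8* (74.0 against 128 CPM, log2 ratio -0.79) and *Ifit2* (717 against 1126 CPM, -0.65), and the median was -0.12. The shares over all genes tested were 2.94% upward and 4.29% downward, so little is read from so small a count. Of the 30, 21 were below 0 and 9 above, beside a median of -0.03 over all genes tested. *Rsad2*, an antiviral enzyme gene, was 4649 against 5398 CPM (-0.22), and *Isg15* 833 against 788 CPM (0.08). *Cxcl10*, a chemokine for T cells that interferon induces, was 727 against 1045 CPM (-0.52, -0.60 to -0.45). The CC chemokines lay close to 0, with a median of 0.15 over 8 genes. *Ccl3* was 824 against 761 CPM (0.11), *Ccl4* 3208 against 2584 CPM (0.31) and *Ccl5* 286.6 against 286.6 CPM, and *Ccl9* and *Ccl24* were past the limit. Of the 114 *Ccl24* UMIs, 5 cells held 56.1%.

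**Figure D3:**
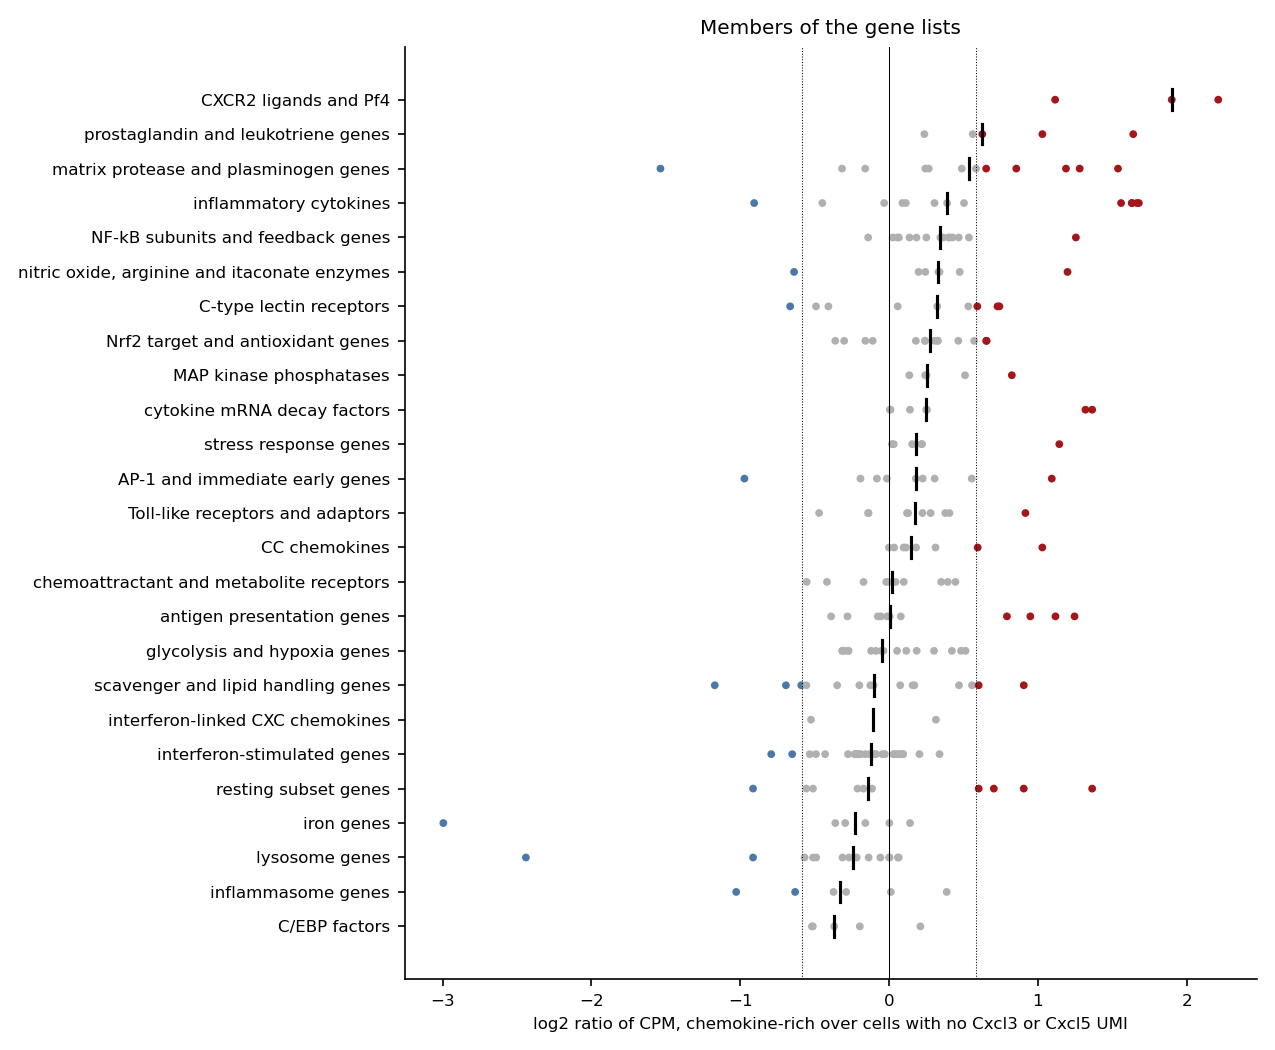
Log2 ratio of CPM, chemokine-rich cells over cells with no *Cxcl3* or *Cxcl5* UMI (x axis), for each tested member (points) of 25 gene lists (rows); red and blue points are past 1.5-fold (dotted lines) and black bars are medians. The CXCR2 ligand list, with *Pf4* as a member, lies at 1.12 to 2.21, and the median of the interferon-stimulated genes is -0.12.

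Among the genes named as lowest, *Atp6v0d2*, which encodes a subunit of the proton pump that acidifies lysosomes, was 173, 116, 76.0 and 31.8 CPM along the bands, with a log2 ratio of -2.44 (-2.81 to -2.09). *Ctsk*, the gene of the collagen-cleaving cathepsin K, was 34.5 against 161 CPM (-2.22, -2.57 to -1.89), and 5 cells held 58.4% of the 77 UMIs in the chemokine-rich group. *Fn1* (fibronectin) was 12.6 against 112 CPM (-3.15, -3.75 to -2.61), and 5 cells held 50% of the 28 UMIs in the chemokine-rich group. *Mfge8*, a bridge to apoptotic cells, was 44.8 against 108 CPM (-1.27), *Ckb*, a creatine kinase, 113 against 271 CPM (-1.26) and *Flrt2* 61.9 against 147 CPM (-1.24). *Cd180*, a Toll-like receptor homologue, was 96.4 against 218 CPM (-1.18, -1.39 to -0.97), and *Ifit1bl1*, an interferon-inducible gene, 52.9 against 115 CPM (-1.12). Of 14 lysosome genes tested, 2 were lower, *Atp6v0d2* and *Atp6v0a1* (106 against 199 CPM), 0 were higher, and the median was -0.24. *Ctsd*, a protease gene of the same list, was 3997 against 5612 CPM (-0.49).

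*S100a9*, *Ngp* and *S100a8*, granule and cytosol proteins of neutrophils, had the largest downward ratios of the genes named by rule. They stood at 1.79 against 782 CPM, 0.45 against 126 CPM and 14.8 against 560 CPM. Of the LP4 UMIs of 7 granule genes, 95.8% came from 21 cells, of which 18 were in the comparison group, 3 had an intermediate score and 0 were chemokine-rich. After cells with at least 3 such UMIs were left out (1 chemokine-rich and 27 comparison cells), the log2 ratio of *S100a8* was -0.64 (-1.26 to -0.07) and that of *S100a9* 0.58 (-1.57 to 2.42). Of the other named genes, 20 stayed inside the intervals given above and *Thbs1* moved as stated; *Ngp* had no value. *Lcn2*, lower at 11.7 against 92.9 CPM, also had 43.2% of its comparison UMIs in 5 cells.

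Chosen on *Cxcl3* alone or on *Cxcl5* alone, the cells gave the same directions for all 24 named genes, with sizes that differed between the choices. The 24 genes were picked on the sum of both counts in this same library. Like directions were therefore favoured by the choice, and nothing is read from them. *Cxcl1* had a log2 ratio of 2.25 (2.18 to 2.31) with *Cxcl3* and 0.80 (0.74 to 0.86) with *Cxcl5*, and *Il1b* 1.76 and 0.55. *F13a1* was 1.70 and 1.13, and *Fn1* -1.57 (-1.92 to -1.25) and -1.80 (-2.21 to -1.42). Cells without *Cxcl5* numbered 3820 and included many with *Cxcl3*, so the comparison cells of the 2 choices differ. The limit was also far lower for *Cxcl5* (1.29 against 15.7 UMIs per 10000), so the sizes cannot be compared as an effect of the gene alone. Against the same 1526 cells without either UMI, the choice on *Cxcl5* gave 91 genes higher and 119 lower.

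**Figure D4:**
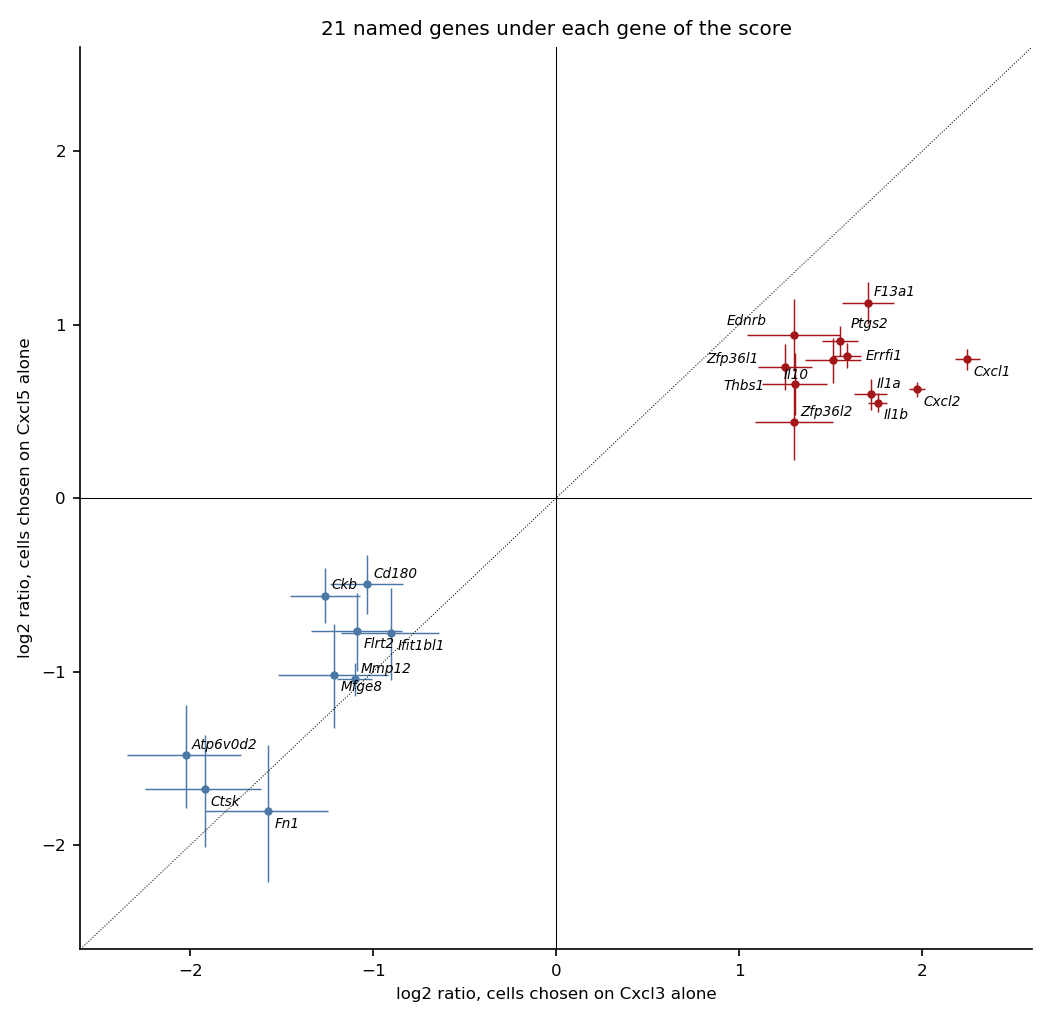
Log2 ratio of CPM of 21 named genes in the highest 10% of LP4 cells for *Cxcl3* alone (x axis) or *Cxcl5* alone (y axis), each over cells without a UMI of that gene; bars are exact 95% intervals for counting error and the dotted line marks equal ratios. All 12 higher genes (red) lie below the line, such as *Cxcl1* at 2.25 and 0.80, and *Fn1* is the 1 lower gene (blue) further from 0 on the *Cxcl5* axis.

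The chemokine-rich cells were also divided by *Cxcl5*, a division chosen after the values were seen. The 243 cells with a *Cxcl5* UMI had a median of 16 *Cxcl3* and 22 *Cxcl5* UMIs, and the 203 without had a median of 27 *Cxcl3* UMIs. Their median depths were 10117 and 10052 UMIs. The cells without *Cxcl5* had more *Cxcl1* (2047 against 1565 CPM), *Cxcl2* (4194 against 3133 CPM), *Il1b* (2827 against 1920 CPM) and *Tnf* (282 against 178 CPM). The cells with *Cxcl5* had more *F13a1* (482 against 314 CPM), the scavenger receptor gene *Olr1* (523 against 311 CPM) and *Gclc* of glutathione synthesis (160 against 89.7 CPM). *Errfi1* (1110 and 1117 CPM) and *Il10* (310.3 and 298.5 CPM) had intervals of the ratio across 0. Since the limit on the sum requires more *Cxcl3* of a cell without *Cxcl5*, the 2 sets also differ in *Cxcl3* by construction.

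The MHC class II genes differed most within the chemokine-rich cells. *Cd74*, the chaperone of MHC class II, was 502 CPM in the 203 cells without *Cxcl5* and 57.6 CPM in those with it, and *H2-Aa* 120 and 4.12 CPM. Few cells carried these RNAs: 13 of the 446 had at least 3 UMIs of *H2-Aa*, *H2-Ab1* and *H2-Eb1*, 12 of them without *Cxcl5*, and they held 94.7% of these UMIs and 73.4% of the *Cd74* UMIs. In the comparison cells 25 of 1526 (1.64%) reached the same level, against 2.91% of the chemokine-rich cells. The ratios of *Cd74* (1.12), *H2-Ab1* (1.25) and *H2-Aa* (0.95) between the chemokine-rich and the comparison cells rest on these cells. The dendritic cell markers gave 8 UMIs in all 446 cells.

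**Figure D5:**
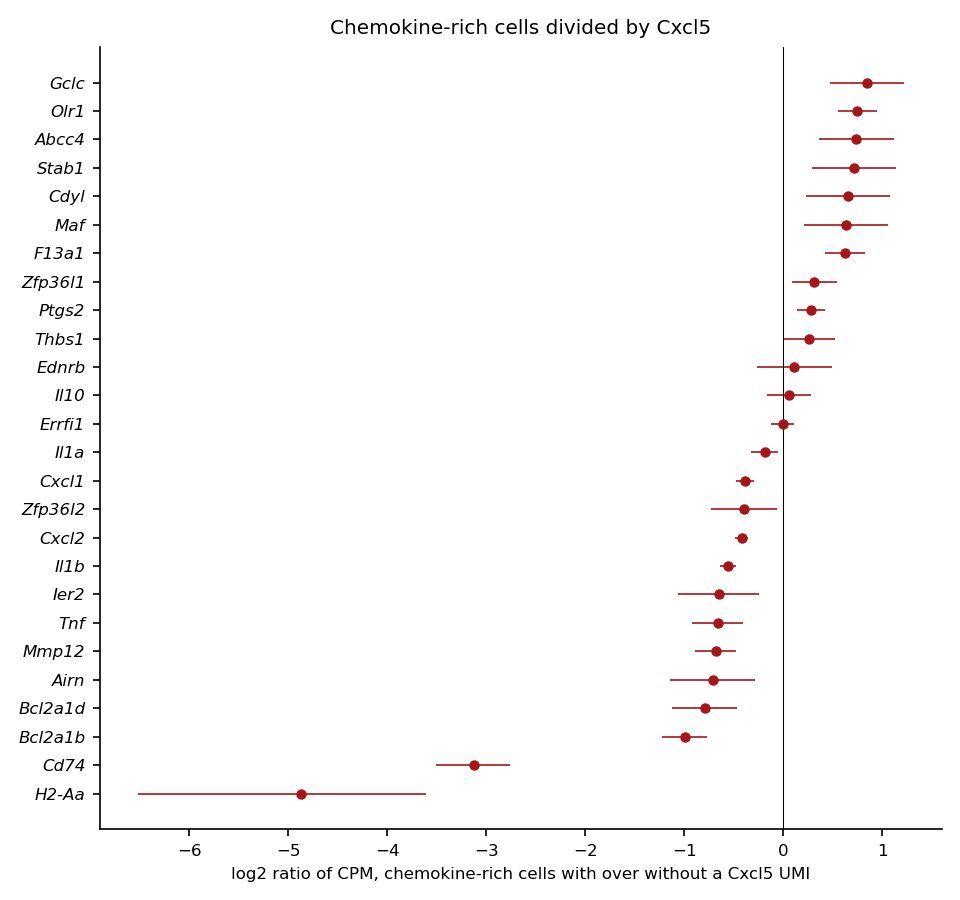
Log2 ratio of CPM in chemokine-rich cells with over those without a *Cxcl5* UMI (x axis; 243 and 203 cells) for the 12 higher named genes and for further genes on each side that were far from 0 and had at least 100 CPM in either set (rows); bars are exact 95% intervals for counting error. *H2-Aa* (-4.87) and *Cd74* (-3.12) stand apart on the left, *Gclc* (0.84) lies on the right, and *Cxcl1*, *Cxcl2* and *Il1b* lie below 0.

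Set beside the other libraries, the chemokine-rich cells were above Ctrl in some of these genes and at or below it in others. Over all cells with 5000 UMIs, *Cxcl3* was 3.53 CPM in Ctrl and 8.66 CPM in LP1, and either chemokine was detected in 65.7% of the LP4 library, in 98 of 3172 untreated cells (3.09%) and after 1 hour in 343 of 4736 (7.24%). The Ctrl, LP1 and LP4 libraries had median depths of 7043.5, 9652.5 and 12128 UMIs per cell. *Il1b* was 322 CPM in Ctrl, 483 in LP1, 729 in the LP4 comparison cells and 2333 in the chemokine-rich cells. *Cxcl2* stood at 4016 CPM in Ctrl and 4757 in LP1, so that the LP4 cells without *Cxcl3* or *Cxcl5*, at 969 CPM, were the lowest of the groups. *Cxcl1* was 600.4 CPM in Ctrl and 1178 in LP1, between the comparison cells (385 CPM) and the chemokine-rich cells (1784 CPM). Of the 160 higher genes, 110 were at least 1.5 times above Ctrl in the chemokine-rich cells and 8 below, whereas in the comparison cells 57 were above and 29 below. Of the 233 lower genes, 160 were at least 1.5 times below Ctrl in the chemokine-rich cells and 25 above, and in the comparison cells 79 were below and 57 above. Over all genes tested, 25% were above and 21.4% below Ctrl in the chemokine-rich cells, and 23.5% and 16.4% in the comparison cells. The called genes were chosen on their level in these same cells, so these counts are a description. With 1 library per condition, treatment and library cannot be told apart.

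In Ctrl and LP1 most cells with either chemokine had a single UMI of it (87 of 98 and 249 of 343). Ctrl cells with a UMI had more *Il1a* (212 against 107 CPM, log2 ratio 0.99, 0.69 to 1.28), *Il10* (149 against 86.1 CPM, 0.79) and *Errfi1* (622 against 410 CPM, 0.60) than those without. *Cxcl1* and *Cxcl2* had log2 ratios of 0.26 and 0.26 in Ctrl and 0.29 and 0.20 in LP1. *Atp6v0d2* was lower in the positive cells of both libraries, with ratios of -0.86 and -0.50, and *Ctsk* likewise, at -1.30 and -0.91. *Ptgs2* (0.14, -0.46 to 0.68) and *F13a1* (0.11, -0.65 to 0.79) had intervals across 0 in Ctrl. *Thbs1* had the opposite sign to that in LP4, at -0.49 (-1.50 to 0.36) in Ctrl and -0.61 (-1.16 to -0.11) in LP1. Granule cells, most of which held *Thbs1* in LP4, were not left out of Ctrl or LP1. Their part in this sign was not tested. The positive cells were deeper than the others before thinning, with medians of 7760 against 7025 UMIs in Ctrl and 11287 against 9567 in LP1, and the part of this depth in the ratios was not tested.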

How the data were processed

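Pooled cultures of Ctrl, LP1 and LP4 BMDMs gave 1 droplet library each. The authors aligned reads to mm10 with Cell Ranger (7.1.0 in the submitters' processing notes) and deposited UMI counts of 32285 genes per called cell, with no normalization. Free RNA was not measured, since only called cells are held. A barcode was kept if it held over 500 UMIs and over 500 genes with under 5% mitochondrial UMIs. With a depth limit of 5000 UMIs as well, 3172, 4736 and 4451 cells were left of 6123, 5119 and 5039 barcodes (51.8%, 92.5% and 88.3%). The Ctrl values are therefore those of the deeper cells of that library. Total counts were 35749924, 52773906 and 64787139 UMIs.

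The score was computed on unthinned counts and cells were then thinned to 5000 UMIs (seed 20). UMIs were summed per group and given as CPM with exact Poisson intervals, as log2 ratios with exact conditional binomial intervals, and as shares of cells with exact Clopper-Pearson intervals. A ratio against 0 UMIs used a floor of 3 counts per group. Genes with a mean of at least 20 CPM were compared, and a 1.5-fold difference was counted. Named genes were the 12 in each direction with the largest ratio among those with at least 100 CPM in either group, together with members of gene lists. *Cxcl3*, *Cxcl5*, mitochondrial, ribosomal protein and clone-named genes, and symbols shared by several gene IDs, were left out of this ranking. The cells and lists were chosen with earlier results of these data known. Doublets were not removed, and the cells with the highest 5% of Scrublet scores were left out as an alternative. Positions came from GENCODE vM21 on GRCm38 (32158 of 32285 gene IDs matched) and promoter sequences from RefSeq, GRCm38.p6; none is shown for *Cxcl5*. Scaling factors by TMM came from edgeR 4.0.16 in R 4.3.3, Scrublet scores from scanpy 1.11.5, intervals from scipy 1.17.1 and figures from matplotlib 3.10.9, with numpy 2.4.6 and pandas 2.3.3 under Python 3.11.15. One gene past the naming rule is not reported here. The ratio and its interval were tested on simulated sums of counts with known ratios. These were drawn from the counting model that the intervals assume, so only the calculation was checked. Cells, the score and the choice of cells were not simulated. Alternatives changed the score, depth, thinning, scaling, filters and cells left out.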

Additional observations from a re-analysis of the deposited data

How the results depend on the processing

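Of 26 alternatives, 3 were chosen after seeing the data (granule cells left out, and chemokine-rich cells without or with a *Cxcl5* UMI). Of 619 values of named genes, 617 kept their sign, but only 436 stayed inside the interval reported. The genes were picked for large ratios in these same cells, so like signs were favoured and nothing is read from them. A changed minimum CPM leaves the ratio of a named gene as it was. All 24 therefore stayed inside by construction at minimums of 10 and 50 CPM and without one, and both counts include these values. *Mfge8* was under 1.5-fold in cells with fewer than 10000 UMIs (-0.52), *Ednrb* in cells with at least 15000 UMIs (0.51) and *S100a8* without cells holding other cell type markers (-0.20), and *Thbs1* ranged from 0.65 to 2.86. *Fn1* ranged from -4.3 in chemokine-rich cells with a *Cxcl5* UMI to -1.6 with the score from *Cxcl3* alone. The counts of 160 higher and 233 lower genes moved by over 1.5 times as follows. The highest 5% of the score gave 426 lower, and the highest 20% gave 94 higher and 111 lower. Scoring on *Cxcl5* alone gave 91 higher and 119 lower, and comparison with all other LP4 cells 96 higher. Cells with at least 15000 UMIs, only 56 of them chemokine-rich, gave 710 higher and 608 lower. A minimum of 10 CPM gave 468 lower, one of 50 CPM 99 higher and 90 lower, and no minimum 833 higher and 2192 lower, where other genes are tested. Leaving out cells with cell cycle UMIs gave 372 lower, and chemokine-rich cells without *Cxcl5* 375 lower. Otherwise the cause was not tested. The sign turned for *Zfp36l2* (-0.079, with an interval across 0) and for the neutrophil marker median (0.39) in cells with at least 15000 UMIs, for that median without cells holding other cell type markers (0.25) or granule genes (0.26), and for *S100a9* without granule cells (0.58). No paired analysis was possible because each condition had 1 library. Leaving out replicates was likewise not possible, and at 5000 UMIs per cell a gene under 20 CPM gave too few UMIs to compare.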

Other observations

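Further gene groups in the chemokine-rich cells were compared with the LP4 cells without *Cxcl3* or *Cxcl5*. Of all genes tested, 2.94% were higher and 4.29% lower by 1.5-fold. Of 9 C-type lectin receptor genes 3 were higher and 1 lower, with *Mrc1*, the mannose receptor, at a log2 ratio of 0.74 and *Clec5a* at -0.66. Of 15 scavenger and lipid handling genes 2 were higher, among them *Apoe* (0.91), and 3 lower, among them *Mertk* (-1.17), a receptor for apoptotic cells. Of 6 inflammasome genes 2 were lower, the DNA sensor gene *Aim2* (-1.03) and the adaptor gene *Pycard* (-0.63). Of 16 glycolysis and hypoxia genes 0 were past 1.5-fold in either direction, with a median of -0.04. Of 10 resting subset genes 4 were higher (*Apoe*, *Slc9a9*, *Selenop* and *Zfp36l1*) and 1 lower (*Atp6v0a1*). The other 6, with *Atp6v0a1*, were below 0, and the median was -0.14. In its Results the paper places the 4 with its phagocytosis clusters and the 6 with antigen presentation. In its supplement, cluster 3 lists *Cxcl3* and *Cxcl5* with *F13a1*, *Il1a*, *Il1b*, *Il10*, *Ptgs2*, *Thbs1*, *Mmp13* and *Serpinb2*, but not *Cxcl1* or *Cxcl2*. Cluster 4 there lists *Cxcl3* and *Cxcl5* with *Ptgs2* and *Mmp13*. Clusters 9 and 10 there list *Fn1*, *Atp6v0d2*, *Ctsk* and *Mfge8*, which were lower in the chemokine-rich cells. How far the score follows these subsets and clusters was not tested.

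*Mthfd2l*, a folate enzyme gene next to *Cxcl2* on chromosome 5 (90931117 to 91021368, GRCm38), was 71.7 against 25.03 CPM, a log2 ratio of 1.52 (1.21 to 1.83). It was named after its values were seen. *Ereg* and *Areg*, growth factor genes beyond it, had 11 against 5 and 9 against 3 UMIs.

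Of 247 LP4 barcodes with at least 5000 UMIs that were left out for 5% or more mitochondrial UMIs, 19 (7.69%, 4.69 to 11.8) reached the score of the chemokine-rich cells. Neither UMI was found in 87 (35.2%).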
